A study of Homo sapiens with 6 samples.

Results

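Genes of the p53 network were read in U251 cells, a human glioma line, in which PARK2 or GFP had been stably overexpressed. PARK2 codes for parkin, an E3 ubiquitin ligase that marks damaged mitochondria for removal. The 39 members are MDM2, its relative MDM4, the p53 relatives TP63 and TP73, and genes listed as p53 targets or relatives of such targets. They were listed by symbol, with earlier results of these data known. Of the 39 members, 36 had a probe set annotated to that gene alone, out of 19775 genes with such a probe set on the array. A filter on dim probe sets was passed by 34. FDXR, TP63 and BTG2 were not analysed here. GADD45G (1 probe set) and SPATA18 (2 probe sets) lay under the filter, at mean intensities of up to 7.93 in PARK2 arrays and 6.19 in control arrays.

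The PARK2 group held 3 arrays of U251 cells carrying the PARK2 transgene, and the control group 3 arrays of U251 cells carrying GFP. Both lines had been infected with virus and selected with puromycin, per the labels' protocols, which name neither the promoter of the transgene nor the number of clones. The labels call the arrays biological replicates without saying that they came from separate cultures, and the error behind every p-value is array-to-array spread, which may be technical. The level of the transgene was not analysed here, and the group labels were taken as given.

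p53 is a transcription factor that cells stabilise after DNA damage and other stress, and its targets halt the cell cycle, repair DNA, alter metabolism or start cell death. MDM2 is both a target of p53 and the ubiquitin ligase that destroys it, which closes a feedback loop. U251 cells carry a mutant p53, and many of the target genes also respond to other transcription factors.

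Array medians ran from 16.2 to 19.3 intensity units in PARK2 arrays and from 16.7 to 18.4 in control arrays. Means with 2% trimmed at each end were 140.8 to 154.9 in PARK2 arrays, and 168.3, 148.5 and 137.3 in control replicates 1, 2 and 3. By that mean control replicate 1 was the brightest array, and the main fit did not rescale it. Log2 values correlated at 0.984 to 0.988 within groups and at 0.969 to 0.973 between them. All 7 glial-line markers were above the filter, among them GFAP, VIM and SOX2, with summed intensities of 26140 to 26740 in PARK2 and 23450 to 27680 in control arrays. Of these markers S100B fell (log2 fold change -1.39, limma's adjusted p 9.3e-10), and GFAP (0.53, adjusted p 0.011) and SOX2 (0.30, adjusted p 0.038) rose. Their part in the results below was not tested. Of the markers of other cell types, 0 of 4 epithelial, 1 of 2 immune and 1 of 3 endothelial ones passed the filter, at summed intensities of 14.5 to 22.9, 19.6 to 31.4 and 26.5 to 51.8 in PARK2 arrays against 4.86 to 27.3, 9.38 to 19.1 and 38.3 to 45.6 in control arrays.

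A p53 response element is built from copies of a consensus decamer, a run of 10 bases. The decamer was searched in the RefSeq promoter windows of GRCh38.p14, which run from 250 bases before to 50 bases after each annotated start. Windows of 33 of the 39 members were searched. FBXO22, RRM2B, TP53INP1 and PHLDA3, which changed in these cells, had no window in the set searched, nor had GADD45A and TNFRSF10C. The sequences listed are those of MDM2, DDB2, PLK2 and EI24. MDM2 is the feedback gene, and DDB2 is the single searched member with an exact paired element. PLK2 and EI24 changed in these cells and hold an exact decamer. Capitals mark the decamers. The consensus is its own reverse complement, so a single search covers both strands. In the MDM2 window, each of the adjoining decamers differs from the consensus by 1 base.
MDM2 (chr12:68808767-68809066, plus strand): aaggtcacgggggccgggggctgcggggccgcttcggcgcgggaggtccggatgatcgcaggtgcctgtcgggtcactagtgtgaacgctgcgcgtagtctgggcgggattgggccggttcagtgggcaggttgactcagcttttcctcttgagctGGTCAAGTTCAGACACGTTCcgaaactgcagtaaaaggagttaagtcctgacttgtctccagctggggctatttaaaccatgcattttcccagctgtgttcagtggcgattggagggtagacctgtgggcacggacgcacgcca
DDB2 (chr11:47214724-47215023, plus strand): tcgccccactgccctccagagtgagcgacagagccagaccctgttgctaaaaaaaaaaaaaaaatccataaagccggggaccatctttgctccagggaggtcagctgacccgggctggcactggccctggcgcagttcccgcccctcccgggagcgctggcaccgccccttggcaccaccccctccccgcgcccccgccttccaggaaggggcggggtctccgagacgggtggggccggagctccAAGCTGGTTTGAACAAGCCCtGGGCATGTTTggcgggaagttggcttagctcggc
PLK2 (chr5:58460037-58460336, minus strand): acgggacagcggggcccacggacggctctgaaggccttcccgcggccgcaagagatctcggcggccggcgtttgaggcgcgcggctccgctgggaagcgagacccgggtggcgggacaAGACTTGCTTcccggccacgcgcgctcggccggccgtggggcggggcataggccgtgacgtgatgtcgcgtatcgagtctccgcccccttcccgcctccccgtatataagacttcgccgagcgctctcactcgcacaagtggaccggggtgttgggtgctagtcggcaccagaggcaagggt
EI24 (chr11:125569227-125569526, plus strand): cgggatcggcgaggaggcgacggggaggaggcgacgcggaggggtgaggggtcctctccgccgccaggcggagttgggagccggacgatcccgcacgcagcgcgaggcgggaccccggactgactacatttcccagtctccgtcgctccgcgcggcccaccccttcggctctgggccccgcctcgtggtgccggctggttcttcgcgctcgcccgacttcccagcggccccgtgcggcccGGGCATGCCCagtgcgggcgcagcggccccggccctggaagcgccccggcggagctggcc

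In MDM2, the first decamer starts 94 bases before the annotated start, in the window of a downstream start of the gene. In DDB2, a decamer with 1 mismatch stands 5 bases before the start and exact decamers begin at bases 6 and 17 after it. An exact decamer was present in 5 of 48 windows of 33 members (10.4%), against 6.63% of all 35116 windows. An exact pair with a spacer of up to 13 bases stood in 1 of 48 member windows (2.08%), against 0.0285% of all windows. Adjoining decamers with up to 1 mismatch each were found in 4 of 48 member windows (8.33%), of TP73, MDM2 and DDB2, against 0.157% of all windows. The MDM2 windows among them overlap and hold the same decamers. These are matches of letters and say nothing of binding in U251 cells, and windows without a match, such as those of ZMAT3 and GDF15, cover 300 bases of each gene.

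The p53 network moved both ways between PARK2 and control cells. Of the 34 members tested, 6 rose and 9 fell, and 19 did not pass limma's threshold of an adjusted p under 0.05. The largest rises were those of ZMAT3, GDF15, KITLG and MDM2, and the largest falls those of CYFIP2, PRDM1 and FBXO22. The members called make up 44.1% of those tested, against 28.8% of all 13720 genes tested. By direction, 13.3% of all genes were higher and 15.6% lower. The median log2 fold change was -0.05 over the members and -0.0026 over all genes, and the median size of the change, sign aside, was 0.37 and 0.25. Values are linear intensities of the brightest probe set, fold changes are differences of log2(value + 16), and rose and fell are used for genes past that threshold. The groups did not overlap for 18 of the 34 members, against 39.5% of all genes, and 14 of these 18 were past the threshold. A change of 2-fold or more past the threshold was seen in 4 members, against 5.59% of all genes. In RNA from whole cultures, fewer cells of a kind and less RNA per cell cannot be told apart.

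**Figure D1:**
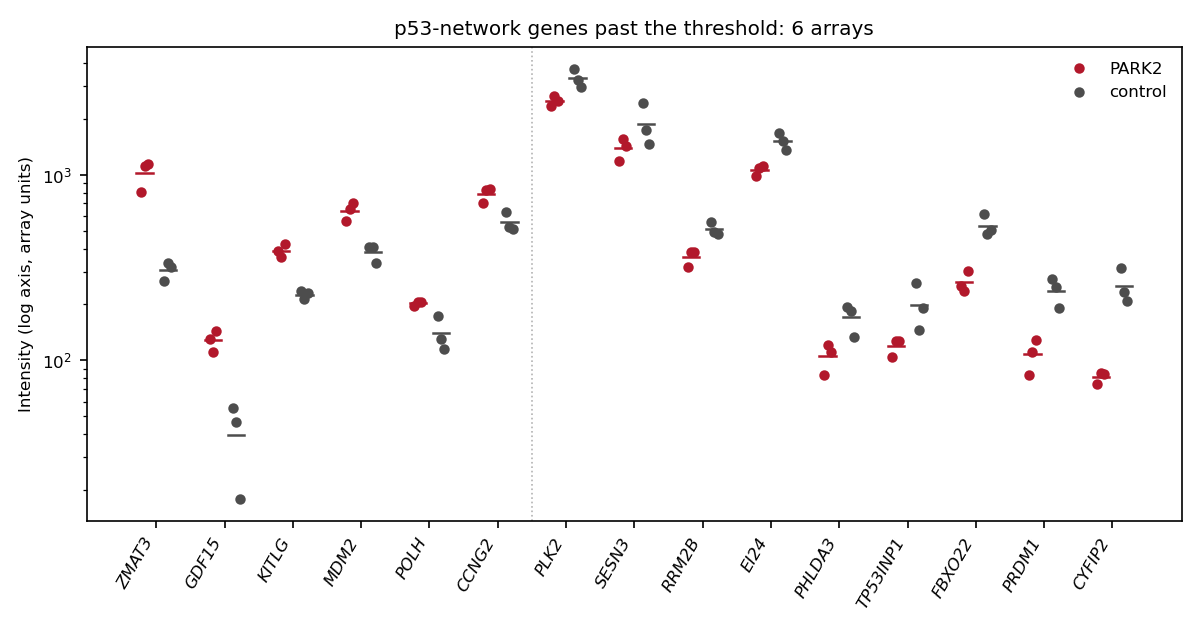
Intensity (log axis, array units) of the 15 members past the threshold on each of the 6 arrays, PARK2 in red to the left of control in grey, with a line at each group's mean. The 6 genes left of the dotted line are higher in PARK2 arrays and the 9 to the right lower, and SESN3 is the member of the 15 whose groups overlap.

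Among p53 regulators, MDM2 rose and FBXO22 fell, while MDM4, PPM1D and TP73 did not pass. MDM2 was at 562, 657 and 705 intensity units in the PARK2 arrays, against 409, 407 and 336 in the control arrays. Every PARK2 array lay above every control array. The log2 fold change was 0.72 (SE 0.15, adjusted p 0.00014), from means of 641 ± 73.0 in PARK2 and 384 ± 41.8 in control cells (SD, n = 3 arrays each). Of the 6 MDM2 probe sets past the filter, 5 were higher and 0 lower when all 26603 probe sets were tested together, where 20.4% were past the threshold. Their log2 fold changes ran from 0.63 to 0.86, and the sixth probe set was at 0.30 (adjusted p 0.45).

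MDM4, which binds p53 and blunts its activity without destroying it, was at 373, 384 and 380.0 in PARK2 arrays and 434, 288 and 311 in control arrays. The control arrays spanned the PARK2 values, and the log2 fold change was 0.15 (SE 0.16, adjusted p 0.54), or 0.33 without control replicate 1 (adjusted p 0.035). Of its 6 probe sets 0 were past the threshold, the brightest is marked _x_at and may also read other transcripts, and the next brightest was at -0.18. PPM1D, a phosphatase that shuts off p53 signalling, was at 441, 438 and 483 in PARK2 arrays against 500.4, 418 and 378 in control arrays (log2 fold change 0.08, adjusted p 0.77). TP73, a p53 relative, was dim, at 36.8, 36.1 and 33.98 against 32.2, 19.7 and 19.2 in control arrays. Its groups did not overlap, but the log2 fold change of 0.39 did not pass (SE 0.21, adjusted p 0.17). Without control replicate 1 it was 0.54 (adjusted p 0.043).

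FBXO22, the substrate receptor of an SCF ubiquitin ligase, was at 251.2, 237 and 301 in PARK2 arrays, against 612, 480.2 and 505 in control arrays. All PARK2 arrays lay below all control arrays, with a log2 fold change of -0.97 (SE 0.16, adjusted p 7.9e-07). Of its 5 probe sets 4 were lower, at -0.97 to -0.84. Its chromosomal neighbours fell too. Of the 20 nearest tested genes on chromosome 15, 13 were lower and 0 higher, with a median log2 fold change of -0.59, and with the neighbours' shift subtracted from each array FBXO22 was at -0.35 (adjusted p 0.024).

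**Figure D2:**
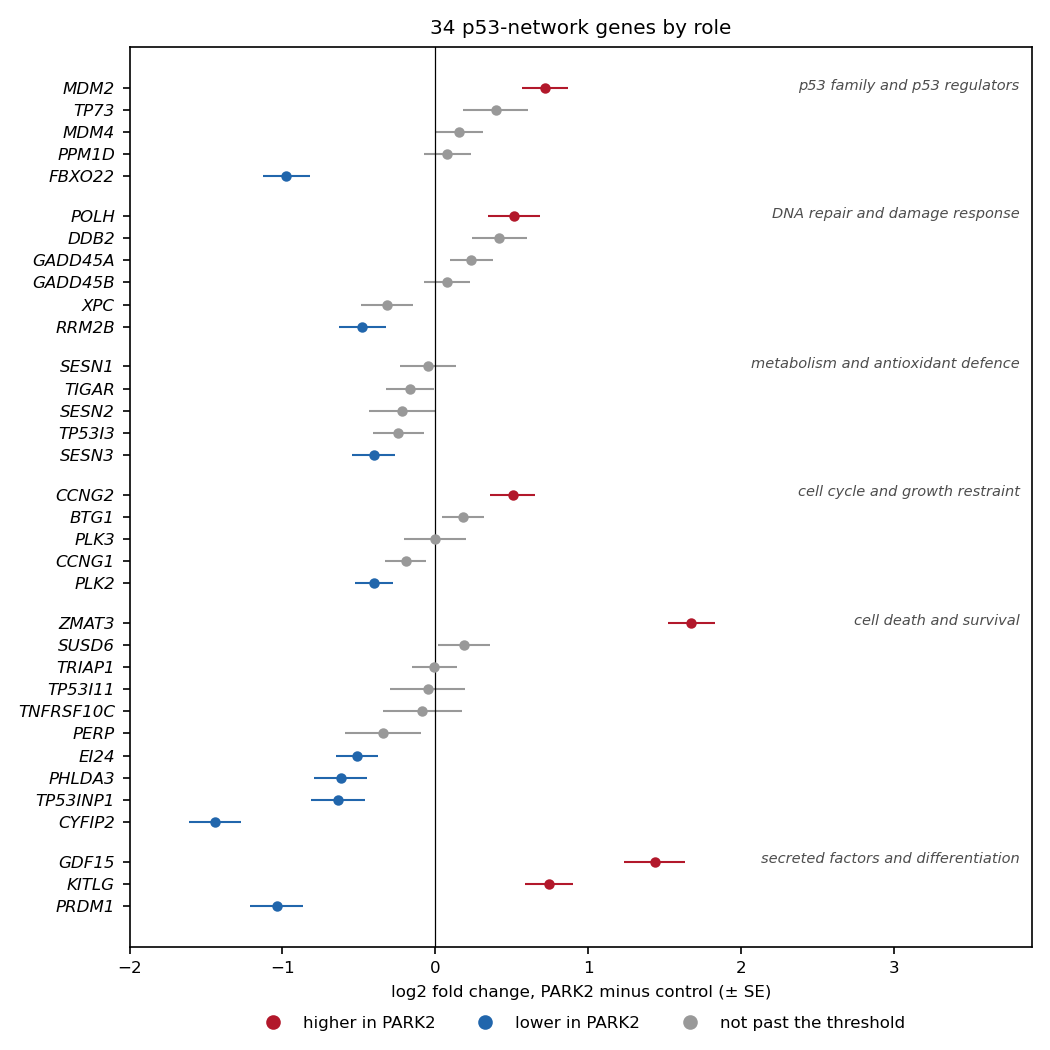
Log2 fold change (PARK2 minus control, x axis) with its standard error for the 34 members tested, grouped by role, with red for higher, blue for lower and grey for members not past the threshold. Each role holds members on both sides of 0 except metabolism and antioxidant defence, where all 5 values are below 0 and SESN3 alone passed. Of all 13720 genes 6813 were above 0, and SESN1, SESN2 and TP53I3 each changed sign in 1 alternative setting.

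Of the DNA repair and damage response genes tested, POLH was higher, RRM2B lower and 4 of 6 not past the threshold. That is 33.3% called, against 28.8% of all genes. POLH, the translesion polymerase eta that copies past UV damage, was at 197, 207 and 207 in PARK2 arrays, against 174, 131 and 115 in control arrays. The PARK2 arrays were close together and above all control arrays, with a log2 fold change of 0.51 (SE 0.17, adjusted p 0.015). Of its 6 probe sets 2 were higher, and as the mean of its probe sets POLH was at 0.26 (adjusted p 0.24). Its call was lost without PARK2 replicate 2 (adjusted p 0.071), PARK2 replicate 3 (0.062), control replicate 2 (0.083) or control replicate 3 (0.062).

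RRM2B, the p53-inducible subunit of ribonucleotide reductase, was at 319.5, 382 and 384 in PARK2 arrays, against 556, 492 and 480.3 in control arrays. No PARK2 array reached the control range, and the log2 fold change was -0.48 (SE 0.15, adjusted p 0.013). Of its 20 nearest tested genes on chromosome 8, 14 were lower and 0 higher, with a median of -0.46. With that shift subtracted RRM2B was at 0.01 (adjusted p 0.93). The call was also lost without PARK2 replicate 1 (0.10) or control replicate 2 (0.051).

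DDB2 and XPC recognise damaged bases in nucleotide excision repair. DDB2 was at 158, 149 and 157 in PARK2 arrays, against 155, 107 and 82.7 in control arrays. Control replicate 1 lay inside the PARK2 range and the other control arrays below it, and the log2 fold change of 0.42 did not pass (SE 0.18, adjusted p 0.068). Without control replicate 1 it was at 0.63 (adjusted p 0.0050). XPC was at 121, 122 and 132 in PARK2 arrays and 178, 182 and 125 in control arrays (log2 fold change -0.32, adjusted p 0.17). It passed without control replicate 3 (-0.48, adjusted p 0.024).

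The GADD45 proteins are small stress-induced regulators of kinases and repair. GADD45A was at 929, 946 and 958 in PARK2 arrays, against 889, 851 and 676 in control arrays. Every PARK2 array was higher, yet the log2 fold change of 0.24 did not pass (SE 0.14, adjusted p 0.24). It passed without control replicate 1 (0.31, adjusted p 0.043) and with quantile normalization (adjusted p 0.020) or trimmed mean scaling (0.023). GADD45B was at 786, 718 and 703 against 869, 738 and 525 in control arrays, with a log2 fold change of 0.08 (adjusted p 0.78). Of its 4 probe sets 0 were past the threshold.

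Of 5 genes of metabolism and antioxidant defence, SESN3 fell and 4 did not pass (20% called, against 28.8% of all genes). The sestrins restrain mTORC1 and limit oxidative damage. SESN3 was at 1193, 1567 and 1422 in PARK2 arrays, against 2444, 1738 and 1464 in control arrays, so that PARK2 replicate 2 lay above control replicate 3. The log2 fold change was -0.40 (SE 0.14, adjusted p 0.026). Without control replicate 1, where SESN3 was highest, the log2 fold change was -0.20 and the call was lost (adjusted p 0.22). The call was also lost without PARK2 replicate 1 (-0.30, adjusted p 0.21) or PARK2 replicate 3 (-0.42, adjusted p 0.057), and with the shift of its neighbours on chromosome 11 subtracted (-0.30, adjusted p 0.083). Dimmer probe sets of SESN3 gave larger falls. Of 6 probe sets past the filter 4 were lower when all probe sets were tested, at -0.77 to -0.62, while the brightest missed the threshold in that fit (adjusted p 0.096). As the mean of its probe sets SESN3 was at -0.62 (adjusted p 0.0033), and with array weights at -0.26 (adjusted p 0.023).

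SESN1 was at 70.2, 72.3 and 85.4 in PARK2 arrays and 83.6, 91.4 and 63.9 in control arrays (log2 fold change -0.05, adjusted p 0.89). SESN2 was at 33.2, 23.7 and 25.5 against 46.9, 32.6 and 25.8 (-0.22, adjusted p 0.51), and its other probe set was at 0.33 (adjusted p 0.29). Both sestrins overlapped between the groups. TIGAR, a phosphatase that restrains glycolysis, was at 349, 332 and 359 in PARK2 arrays against 449, 416 and 318 in control arrays (-0.16, adjusted p 0.49). TP53I3, a quinone oxidoreductase-like enzyme, was at 144, 150.1 and 163 against 215, 176 and 161 (-0.24, adjusted p 0.31).

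Among genes that restrain the cell cycle and growth, CCNG2 rose and PLK2 fell. CCNG2, an atypical cyclin found in cells that leave the cycle, was at 707, 823 and 843 in PARK2 arrays, against 627, 524 and 509 in control arrays. All PARK2 arrays lay above all control arrays, with a log2 fold change of 0.50 (SE 0.15, adjusted p 0.0061). Of its 5 probe sets 2 were higher and the other 3 were at 0.20 to 0.45. The call was lost without PARK2 replicate 2 (adjusted p 0.060), PARK2 replicate 3 (0.062) or control replicate 2 (0.057). Its relative CCNG1, which recruits a phosphatase to MDM2, was at 1212, 1451 and 1474 in PARK2 arrays against 1591, 1624 and 1514 in control arrays. The groups did not overlap, but the log2 fold change of -0.20 did not pass (SE 0.13, adjusted p 0.30). With the shift of its neighbours subtracted, 8 of 20 of which were higher, it was at -0.39 (adjusted p 0.022).

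PLK2, a polo-like kinase induced by stress, was at 2342, 2649.6 and 2507 in PARK2 arrays, against 3735, 3224 and 2981 in control arrays. The groups did not overlap and the log2 fold change was -0.40 (SE 0.12, adjusted p 0.010). Without PARK2 replicate 1 the adjusted p was 0.075, and without PARK2 replicate 3 it was 0.051. PLK3 was at 34.1, 42.3 and 37.3 against 43.0, 33.8 and 37.1 in control arrays, with a log2 fold change of -0.0011 (SE 0.20, adjusted p 0.998). BTG1, an antiproliferative protein that recruits mRNA deadenylases, was at 1482, 1319 and 1514 in PARK2 arrays and 1491, 1194 and 1135 in control arrays (0.18, adjusted p 0.37), and passed without control replicate 1 (0.30, adjusted p 0.024).

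Of 10 genes of cell death and survival tested, 1 was higher, 4 were lower and 5 were not past the threshold. Of all genes, 13.3% were higher and 15.6% lower. ZMAT3, an RNA-binding zinc finger protein that acts in splicing and mRNA decay downstream of p53, had the largest rise among the members. Its intensities were 809.7, 1115 and 1142 in PARK2 arrays, against 268, 334 and 320.1 in control arrays. The lowest PARK2 array was above the highest control array by a wide margin, and the log2 fold change was 1.67 (SE 0.15, adjusted p 2.4e-14). Of its 5 probe sets 4 were higher, at 1.54 to 1.76, and the dimmest was at 0.40 (adjusted p 0.24). Its neighbours on chromosome 3 rose as well, with 14 of 20 higher and a median of 0.49, and with that shift subtracted ZMAT3 was at 1.19 (adjusted p 2.6e-05).

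CYFIP2, a subunit of the actin-regulating WAVE complex, had the largest fall. It was at 74.9, 85.6 and 84.5 in PARK2 arrays, against 316, 233 and 208 in control arrays. Every control array was well above every PARK2 array, with a log2 fold change of -1.44 (SE 0.17, adjusted p 2.6e-10). Its second probe set was at -1.35, and of its 20 neighbours on chromosome 5, 2 were higher and 2 lower.

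TP53INP1, a stress protein linked to autophagy and apoptosis, was at 104, 128 and 128 in PARK2 arrays, against 262, 145 and 192 in control arrays. No PARK2 array reached the lowest control array, and the log2 fold change was -0.64 (SE 0.18, adjusted p 0.0034). It lies on chromosome 8, as RRM2B does, and 13 of its 20 neighbours were lower and 0 higher, with a median of -0.49. With that shift subtracted TP53INP1 was at -0.16 (adjusted p 0.50). With array weights it was at -0.29 and missed the threshold (adjusted p 0.050), and with no filter on dim probe sets it stayed at -0.64 but missed it too (adjusted p 0.057).

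PHLDA3, a membrane-lipid binder that opposes AKT, was at 83.7, 121 and 111 in PARK2 arrays, against 193, 185 and 133 in control arrays. All PARK2 arrays were lower, with a log2 fold change of -0.62 (SE 0.18, adjusted p 0.0045), and its other probe set was at -0.71. Without PARK2 replicate 1 the call was lost (adjusted p 0.070). EI24, a membrane protein of the endoplasmic reticulum that takes part in autophagy, was at 983, 1087 and 1121 in PARK2 arrays, against 1686, 1529 and 1364 in control arrays. The groups did not overlap, with a log2 fold change of -0.51 (SE 0.14, adjusted p 0.0025) and -0.59 on its other probe set. With the shift of its neighbours subtracted, 6 of 20 of which were lower, EI24 was at -0.26 (adjusted p 0.028).

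The other 5 genes of this role were at log2 fold changes of -0.34 to 0.19. SUSD6 was at 135, 153 and 138 in PARK2 arrays and 147, 115 and 108 in control arrays (0.19, adjusted p 0.47). TRIAP1, a mitochondrial lipid-transfer partner that counters apoptosis, was at 670.2, 676 and 687 against 788, 718 and 559 (-0.0078, adjusted p 0.98). PERP, a desmosomal membrane protein, TNFRSF10C, a decoy receptor for the death ligand TRAIL, and TP53I11 were dim on their brightest probe sets, with no array above 27.6 intensity units there. PERP was at 8.37, 8.32 and 4.56 in PARK2 arrays against 10.7, 15.3 and 13.8 in control arrays (-0.34, adjusted p 0.33), TNFRSF10C at -0.09 (adjusted p 0.86) and TP53I11 at -0.05 (adjusted p 0.91).

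The 3 genes for secreted factors and differentiation all passed, against 28.8% of all genes, with GDF15 and KITLG higher and PRDM1 lower. GDF15, a secreted stress hormone of the TGF-beta family, was at 129.8, 111 and 144 in PARK2 arrays, against 55.2, 46.4 and 17.9 in control arrays. The PARK2 arrays were all higher and control replicate 3 was the lowest, and the log2 fold change was 1.43 (SE 0.20, adjusted p 2.8e-08). This probe set is marked _x_at and may also read other transcripts. A dim second probe set was at -0.09 (adjusted p 0.85), and as the mean of both GDF15 was at 0.67 (adjusted p 0.0086). With a pseudocount of 64 it was at 0.90 (adjusted p 1.3e-08).

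KITLG, the ligand of the receptor tyrosine kinase KIT, was at 386, 359 and 426 in PARK2 arrays, against 236, 214 and 229 in control arrays. The groups were well apart, with a log2 fold change of 0.74 (SE 0.16, adjusted p 0.00013). As the mean with a dim second probe set at -0.03, KITLG was at 0.36 (adjusted p 0.065). PRDM1, a transcriptional repressor that drives terminal differentiation of lymphocytes, was at 83.6, 111 and 129 in PARK2 arrays, against 274, 247 and 191 in control arrays. Every PARK2 array was below every control array, with a log2 fold change of -1.04 (SE 0.17, adjusted p 1.8e-06), and its 2 dimmer probe sets did not pass, at -0.64 and -0.09. As the mean of its probe sets PRDM1 was at -0.59 (adjusted p 0.0093). Of its neighbours on chromosome 6, 5 of 20 were higher and 1 lower, and with their shift subtracted PRDM1 was at -1.29.

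**Figure D3:**
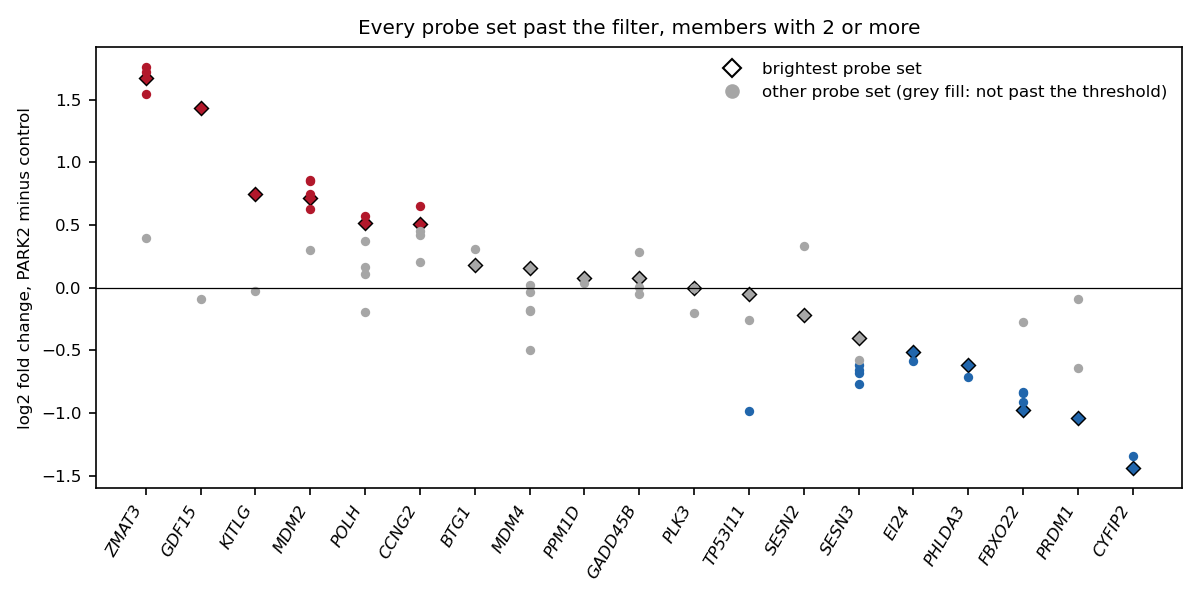
Log2 fold change (PARK2 minus control, y axis) of every probe set past the filter for the 19 members with more than 1, with the brightest as a diamond, from a fit of all probe sets, red or blue where past the threshold and grey otherwise. Of the 83 member probe sets past the filter 15 were higher and 19 lower, against 20.4% of all 26603 probe sets past the threshold in either direction. Probe sets of the same gene are not independent, and 0 members had probe sets past the threshold in both directions.

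Several members changed together with the genes beside them. For 4 of the 15 members past the threshold, ZMAT3, FBXO22, RRM2B and TP53INP1, at least 10 of the 20 nearest tested genes were past the threshold in the same direction. The share of all genes with such neighbours was not counted, so the count cannot be called particular to the members. For MDM2 on chromosome 12, 3 neighbours were higher and 2 lower (median 0.02), and for GDF15 on chromosome 19, 1 was higher and 2 lower (median 0.08). After the neighbours' shift was subtracted, MDM2 was at 0.67 and GDF15 at 1.40, both past the threshold. Under that correction 7 members were higher and 7 lower.

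**Figure D4:**
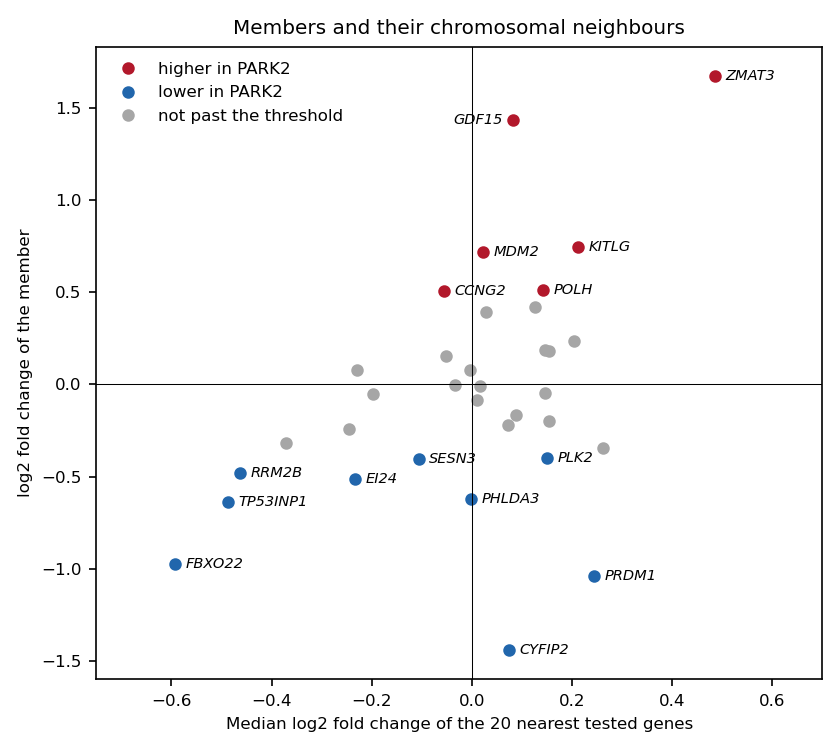
Log2 fold change of each of the 34 members (y axis) against the median log2 fold change of its 20 nearest tested genes on the chromosome (x axis), coloured by call as higher, lower or not past the threshold. FBXO22, TP53INP1 and RRM2B sit at the left with neighbours at -0.59 to -0.46 and ZMAT3 at the right with 0.49, while GDF15, MDM2, PHLDA3 and CYFIP2 lie near the vertical line at 0.

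Other genes of the p53 pathway were read from a list of 43, of which 37 were tested. Of these, 6 rose and 7 fell, which is 35.1% called against 28.8% of all genes. Among 19 other p53 targets 4 rose and 4 fell (42.1% called). The CDK inhibitor CDKN1A, the best known target of p53 in cell cycle arrest, was at 482, 507 and 484 in PARK2 arrays, against 133, 102 and 97.3 in control arrays (log2 fold change 2.01, SE 0.16, adjusted p 1.1e-16). Its neighbours had a median of 0.08. RPRM, a mediator of G2 arrest, was at 122, 86.7 and 115 in PARK2 arrays, against 30.9, 13.6 and 18.1 in control arrays (1.76, adjusted p 5.5e-11). IGFBP3, a binding protein for insulin-like growth factors (1.02), and the repressor E2F7 (0.70) were the other targets that rose. Of the 20 neighbours of IGFBP3, 10 were higher (median 0.41), and of those of RPRM 8 (median 0.50). With the neighbours' shift subtracted all 4 kept their calls, with CDKN1A at 1.94, RPRM at 1.33, IGFBP3 at 0.67 and E2F7 at 0.48.

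The 4 targets that fell were the nuclease gene AEN (-0.92), PML, the scaffold of nuclear bodies (-0.77), the ribosomal protein gene RPS27L (-0.44) and the carboxylesterase gene CES2 (-0.43). AEN, PML and RPS27L lie on chromosome 15, as FBXO22 does, with 14, 11 and 12 of their 20 neighbours lower. With the neighbours' shift subtracted the adjusted p was 0.11 for AEN, 0.16 for PML, 0.70 for RPS27L and 0.094 for CES2.

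The death genes BAX (0.42, adjusted p 0.063), FAS (-0.17, adjusted p 0.46), PMAIP1 (-0.18, adjusted p 0.38) and TNFRSF10B (-0.12, adjusted p 0.65) did not pass. Of 18 upstream regulators and cofactors of p53, 2 rose and 3 fell, which is 27.8% called, close to the 28.8% of all genes. The checkpoint kinase gene CHEK2 (0.59) and TP53BP2, whose protein steers p53 toward apoptosis genes (0.57), rose. Its relative PPP1R13B (-0.74), the acetyltransferase gene KAT5 (-0.54) and the checkpoint kinase gene CHEK1 (-0.48) fell. The probe set of KAT5 is marked _x_at and may also read other transcripts. For each of the other pathway genes the brightest probe set alone is given. CHEK1 and KAT5, both on chromosome 11, lost their calls with the neighbours' shift subtracted (adjusted p 0.34 and 0.67), with 8 and 10 of their 20 neighbours lower. The calls of CHEK2, TP53BP2 and PPP1R13B held under that correction.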

How the data were processed

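Deposited values were linear intensities, 1 per probe set and array, for 54675 probe sets on 6 Affymetrix arrays. The submitters' processing notes list the programs GCOS and MAS5. Their role and the scaling of the arrays are not given in the sources used here. Genes came from GEO's platform annotation, with 41091 probe sets of a single gene, 1801 of several and 11721 of none, besides 62 control probe sets.

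Intensities were turned into log2(value + 16) without further normalization. Single-gene probe sets at or above the 40th percentile of mean log2 value were kept (26603), and the brightest represented each gene (13720 genes). The lowest mean intensity kept was 9.96. PARK2 and control arrays were compared with limma 3.58.1 (R 4.3.3), letting the variance follow intensity, in 2-sided tests with Benjamini-Hochberg adjustment over all genes at 0.05; every adjusted p is limma's. The variance model had 60.8 prior against 4 residual degrees of freedom, so small p-values lean on it. The neighbour correction subtracted, per array, the median deviation of the 20 nearest tested genes, in the gene order of GRCh38.p14. Members, lists and tests were chosen with earlier results of these data known. Every tested member is named with its values, and of the other pathway genes those past the threshold. BAX, FAS, PMAIP1, TNFRSF10B, HIPK2 and NINJ1, which missed it, were named after their values were seen. Fits were tested on simulated data with changes added to 200 of 13720 genes. There 22.4% of 1.5-fold, 74.6% of 2-fold and 100% of 4-fold changes were recovered, and 6 unchanged genes passed. In that simulation a change of 1.5-fold was thus missed more often than found. It held fewer changed genes than the 3957 called in the real data, which makes the adjusted p stricter. Its recovered shares therefore do not carry over to the real comparison. In 22 alternatives the pseudocount, filter, scaling, variance model, probe set rule, threshold, arrays left out or block differed. No 2 arrays held identical values. The number of arrays limits the precision.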

Additional observations from a re-analysis of the deposited data

How the results depend on the processing

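In 22 alternative settings, MDM2, ZMAT3, FBXO22 and PRDM1 kept their direction and their call in all 22, and CYFIP2 and GDF15 in the 21 that gave them a value (both were untested without _x_at and _s_at probe sets). The other 9 of the 15 members past the threshold lost their call in at least 1 setting. RRM2B alone among the 15 changed sign, to 0.014 under the neighbour correction. With no filter on dim probe sets SESN3 (adjusted p 0.17), POLH (0.060) and PHLDA3 (0.051) also lost theirs, and without the intensity trend PLK2 (0.076) and SESN3 (0.15). Of the 19 members not past the threshold, 13 changed sign somewhere, without passing on the other side, and 10 passed in at least 1 setting. With quantile normalization 9 members were higher and 9 lower, against 2648 and 2550 of all genes, and with trimmed mean scaling 8 and 9, against 2632 and 2509 of all genes, so that calls increased over the whole array. Array weights gave 11 members, 10 other pathway genes and 3616 of all genes higher. With no filter 4 other pathway genes and 10 member probe sets were lower. Without _x_at and _s_at probe sets, where fewer genes were tested, 3 other pathway genes were higher and 4 lower. Under the neighbour correction 2 other pathway genes were lower, PPP1R13B and NINJ1, the second of which had not passed without it. At an adjusted p under 0.01, 4 other pathway genes were lower, and 8 member probe sets were higher and 9 lower. At an adjusted p under 0.05 with a change of at least 1.5-fold, 1063 of all genes were higher and 1291 lower, and 5 members and 3 other pathway genes were lower. The cause of the other differences was not tested.

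Leaving out each array in turn gave 4 to 11 members higher and 5 to 10 lower, with 11 higher without control replicate 1 and 5 lower without PARK2 replicate 1. Other pathway genes ran from 5 to 7 higher and 3 to 7 lower, with 3 lower without PARK2 replicate 2 and 4 without PARK2 replicate 1. Member probe sets ran from 8 to 16 higher and 12 to 21 lower, with 8 higher without control replicate 2 and 12 lower without PARK2 replicate 1 or control replicate 1. All genes ran from 1225 to 2799 higher (2799 without control replicate 1) and 1540 to 2629 lower. Deviations from the group mean correlated across genes, between arrays sharing a number, at r of 0.168, 0.0453 and 0.0649, against -0.122 to 0.0687 for other pairs. These r were not all above 0.1, and not every array correlated best with its own number, so the numbers were not taken to pair the arrays. With the replicate number as a block 6 members were higher and 9 lower, with 1556 and 1897 of all genes, and no member's call changed. Signal over background limits PERP, TNFRSF10C and TP53I11.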

Other observations

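In TP53I11 the brightest probe set did not pass, while another read 3.17, 1.96 and 2.55 intensity units in PARK2 arrays, against 35.4, 23.4 and 8.43 in control arrays. That dimmer probe set was at -0.98 (limma's adjusted p 0.012 with all probe sets tested). MDM4 had a dim probe set at 24.3, 31.3 and 36.1 in PARK2 arrays, against 52.1, 60.5 and 37.8 in control arrays, with a log2 fold change of -0.50 (adjusted p 0.091), where its brightest was at 0.15.

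Related members had unlike values. MDM2 was at 0.72 and MDM4 at 0.15, CCNG2 at 0.50 and CCNG1 at -0.20, and SESN3 at -0.40 and SESN1 at -0.05. The differences within pairs were not tested. After the neighbours' shift was subtracted, 1 member besides CCNG1 and 3 other pathway genes that had not passed moved past the threshold. These were PPM1D (0.27, adjusted p 0.040), PMAIP1 (0.50, adjusted p 0.032), HIPK2, a kinase that phosphorylates p53 (0.30, adjusted p 0.0052), and NINJ1 (-0.32, adjusted p 0.041). Of the 20 nearest genes of PMAIP1 on chromosome 18, 15 were lower and 1 higher, with a median of -0.63.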
